A study of Mus musculus with 17 samples.

Results

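The acrosome and sperm-egg binding genes described here were *Acr*, *Acrv1*, *Spaca1*, *Spaca3*, *Spaca4*, *Zpbp*, *Zpbp2*, *Izumo1*, *Spam1* and *Zp3r*. They were chosen by name, by a rule that used no measured value, but with earlier results of these data known. All 10 were found among the 23282 genes of the deposited table. The acrosome is a secretory vesicle that forms over the nucleus of the round spermatid from Golgi-derived membranes and that is released when the sperm meets the egg. Its matrix holds proteases and zona-binding proteins, and its membranes carry proteins needed to shape the vesicle, to adhere to the zona pellucida (the coat of the egg) and to fuse with the egg. Transcription of many of these genes begins in meiosis, ahead of the stage in which the organelle is built.

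WT and *Nat10*-SKO mice were on a C57BL/6J background. Their germ cells were sorted by FACS after Hoechst staining into SPG (spermatogonia), PreL (pre-leptotene spermatocytes) and LZ (spermatocytes in leptotene or zygotene). *Nat10* encodes the acetyltransferase that writes N4-acetylcytidine in RNA. *Nat10*-SKO mice were *Nat10* fl/-;*Stra8*-GFPCre, with 1 floxed and 1 deleted allele. The Cre, knocked in at *Stra8*, a gene of differentiating germ cells, excised exons 4 and 5. Cells in which the Cre had not acted kept 1 floxed allele. WT mice carried no label of a floxed allele or Cre, and the age of the mice and the pooling of animals are not given in the sources used here. There were 17 Smart-seq2 libraries of polyadenylated RNA with ERCC spike-in, namely 3 WT and 3 SKO of SPG, 3 WT and 3 SKO of PreL, and 2 WT and 3 SKO of LZ. The paper calls its RNA-seq replicates biological, but the labels do not say that the libraries of a group came from separate mice. The p-values thus measure only the spread between these libraries, which may be technical.

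The deposited values are read counts multiplied by 1 calibration factor per library, and whole reads were recovered from 100% of them. The libraries held from 5812380 reads (SKO LZ) to 13820953 reads (WT LZ), and all SKO LZ libraries were shallower than every other library. Levels are given as reads or as RPM, reads scaled to 1000000 reads of the same library. Differences are log2 fold changes of the rescaled values with 10 added, tested with limma across all genes, and a gene was called where its Benjamini-Hochberg adjusted p was under 0.05 and its log2 fold change was beyond 1 in either direction. Adding 10 shrinks the changes of scarce genes. PCR copies of 1 molecule cannot be recognised without identifiers, so the intervals and the floor of 3 reads used below cover counting error only. In sorted bulk samples, fewer cells of a type and less RNA per cell cannot be told apart.

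The 10 genes lie at 10 loci of GRCm38 (mm10), each annotated as protein coding. *Acr* lies at chr15:89568326-89574585, *Acrv1* at chr9:36693220-36698843 and *Spam1* at chr6:24791188-24801048, all on the plus strand, and *Zp3r* at chr1:130576713-130629621 on the minus strand. *Spaca1* lies at chr4:34024874-34050191 on the minus strand, *Spaca3* at chr11:80858365-80867814 on the plus strand and *Spaca4* at chr7:45725107-45725813 on the minus strand. *Zpbp* lies at chr11:11279626-11462408 on the minus strand, *Zpbp2* at chr11:98551097-98558665 and *Izumo1* at chr7:45621811-45628823, both on the plus strand. The exons of *Izumo1* share 654 bases with *Rasip1* on the same strand, and those of *Zpbp* share 223 bases with *Spata48* on the other strand. The other 8 share none.

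The promoters were set side by side to show which letters the genes share upstream of their starts. RefSeq windows from 250 bases before to 50 bases after the start (GRCm38.p6) were found for 9 of the 10 genes, *Acr* having none. The cAMP response element TGACGTCA, bound by CREM in spermatids, was searched on both strands together with its shorter form TGACG, which lies within it. The whole element was in 1 of the 9 (*Izumo1*), against 1.79% of 32851 promoter windows of that length, and the shorter form in 4 of the 9 (*Izumo1*, *Spaca1*, *Spaca3* and *Zpbp2*), against 20.8%. The half-site of RFX, GTTNCC, was in 8 of the 9, against 45.3%, and the MYB site AACNGNC in 1 of the 9, against 32.8%. The 150 bases before the start are printed for 3 genes with the shorter form, on the strand of the gene and with the element in capitals, and for 2 genes without it.
Izumo1 (chr7:45621661-45621810): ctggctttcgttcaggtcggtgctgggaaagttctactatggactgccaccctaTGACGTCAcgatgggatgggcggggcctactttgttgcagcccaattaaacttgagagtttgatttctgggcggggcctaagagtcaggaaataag
Zpbp2 (chr11:98550947-98551096): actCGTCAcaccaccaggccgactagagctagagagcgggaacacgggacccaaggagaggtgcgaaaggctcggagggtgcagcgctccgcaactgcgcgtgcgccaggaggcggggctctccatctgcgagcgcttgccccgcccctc
Spaca3 (chr11:80858213-80858362): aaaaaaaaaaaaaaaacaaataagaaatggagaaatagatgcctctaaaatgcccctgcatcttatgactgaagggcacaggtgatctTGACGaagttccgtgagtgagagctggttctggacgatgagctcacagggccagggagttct
Acrv1 (chr9:36693070-36693219): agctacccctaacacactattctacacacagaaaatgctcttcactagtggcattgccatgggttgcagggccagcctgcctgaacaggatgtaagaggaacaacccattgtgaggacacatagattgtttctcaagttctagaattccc
Zpbp (chr11:11462420-11462569, minus strand): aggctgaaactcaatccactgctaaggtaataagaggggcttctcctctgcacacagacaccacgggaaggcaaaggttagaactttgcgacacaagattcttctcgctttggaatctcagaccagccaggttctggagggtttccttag
In *Zpbp2* the element stands on the other strand, as CGTCA. A match is a description of the letters and not a bound site.

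The targeted gene was lower in SKO in each stage. *Nat10* had 350 to 485 reads in WT SPG and 159 to 269 in SKO SPG, 248 to 385 in WT PreL and 114 to 168 in SKO PreL, and 388 to 391 in WT LZ and 45 to 61 in SKO LZ, with no overlap in any stage. Its log2 fold change was -0.87 in SPG (adjusted p = 0.0326 from limma, under the fold threshold), -1.29 in PreL (adjusted p = 0.00591) and -1.47 in LZ (adjusted p = 0.00469). Reads over exons that are not excised count on the gene as well.

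**Figure D1:**
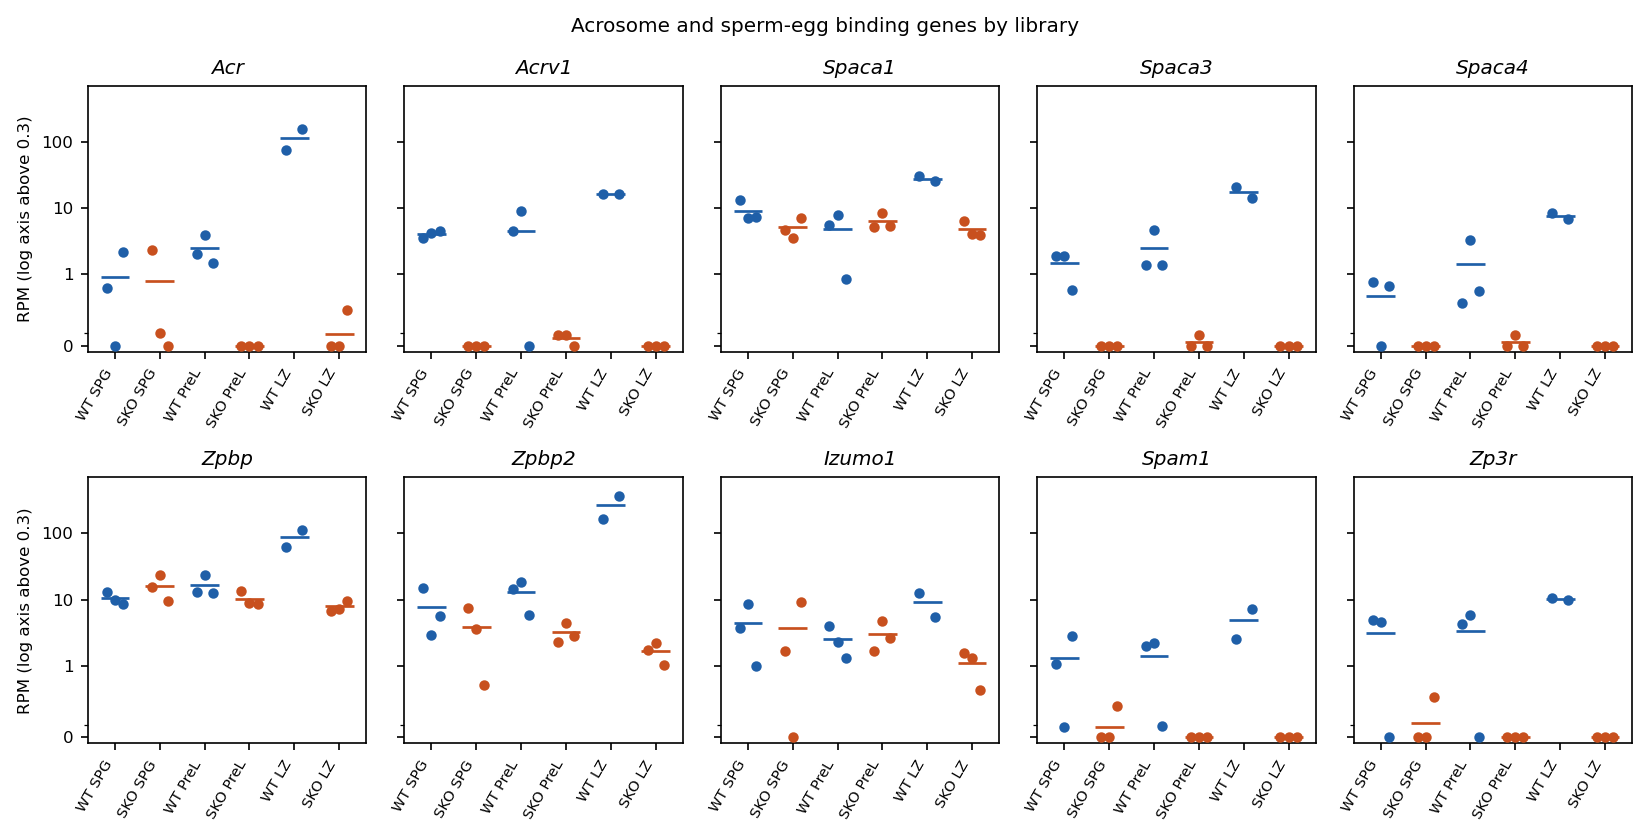
RPM of each of the 10 genes in all 17 libraries, on an axis that is linear from 0 to 0.3 and logarithmic above; each point is a library, blue for WT and orange for SKO, and bars are group means. The WT LZ points stand highest for each gene by their mean, and no SKO LZ point reaches a WT LZ point.

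In WT cells the 10 genes were most abundant in LZ. Their summed level was 33.4 to 57.0 RPM in WT SPG, 24.2 to 80.9 RPM in WT PreL and 401 and 724 RPM in WT LZ. By mean RPM, WT LZ ranked highest of the 6 groups for each of the 10, and for 8 of the 10 both WT LZ libraries lay above every library of the other groups. The exceptions were *Izumo1*, and *Spam1*, for which WT SPG replicate 3 (2.83 RPM) lay above WT LZ replicate 2 (2.53 RPM). Below WT LZ, the ranges of most neighbouring groups overlapped, and 7 genes (*Acr*, *Acrv1*, *Spaca3*, *Spaca4*, *Zpbp2*, *Spam1* and *Zp3r*) had the order WT PreL, WT SPG, then the SKO groups, with WT PreL and WT SPG overlapping in each.

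From PreL to LZ in WT, 6 of the 10 genes were called higher, against 18.8% of the 13759 genes tested. The median log2 difference of the 10 was 2.47, against 0.13 for all genes. *Acr*, which encodes the protease acrosin, had 22, 41 and 16 reads in WT PreL replicates 1, 2 and 4, and 1027 and 2111 reads in WT LZ replicates 2 and 3. Its mean RPM in WT LZ was 46.2 times that in WT PreL, and its log2 difference was 5.16 (standard error 0.52, adjusted p = 0.00251). *Zpbp2*, a zona-binding protein of the acrosomal matrix, had 155, 195 and 63 reads in WT PreL and 2261 and 5073 in WT LZ. Its mean RPM was 20.7 times higher and its log2 difference 4.20 (standard error 0.52, adjusted p = 0.00251). The steps of these 2 genes exceeded those of the other 8, which lay between 1.55 and 2.70 on the log2 scale.

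Among those 8, *Zpbp*, the paralogue of *Zpbp2*, rose by 2.22 (adjusted p = 0.00495). *Spaca1*, a membrane protein needed to shape the acrosome, rose by 2.70 (adjusted p = 0.0194). The lysozyme-like *Spaca3* rose by 2.63 (adjusted p = 0.00910) and *Spaca4*, a surface protein used in zona binding, by 2.37 (adjusted p = 0.0350). Not called were *Acrv1* at 2.56 (adjusted p = 0.101), *Zp3r* at 2.10 (0.142), *Spam1* at 1.61 (0.169) and *Izumo1* at 1.55 (0.0568). *Acrv1* and *Zp3r* each had 0 reads in WT PreL replicate 4, while replicates 1 and 2 had 48 and 94 reads of *Acrv1* and 46 and 61 reads of *Zp3r*. Without WT LZ replicate 2 the count was 3 (*Acr*, *Zpbp2* and *Zpbp*) and without replicate 3 it was 2 (*Acr* and *Zpbp2*), where the lone LZ library is assumed to vary like the others. *Spaca4* was also lost without WT PreL replicate 1 (adjusted p = 0.106) or replicate 4 (adjusted p = 0.0872) and with edgeR (adjusted p = 0.0982) and DESeq2 (adjusted p = 0.0705), and *Acrv1* was called without WT PreL replicate 2 (adjusted p = 0.0295).

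From SPG to PreL in WT, 0 of the 10 were called higher or lower by limma, against 2.54% higher and 1.21% lower among 12657 genes, and 0 of the 10 had an unadjusted p under 0.05. edgeR and DESeq2 on the recovered reads called 0 as well. The log2 differences ran from -1.11 (*Spaca1*) to 1.18 (*Acr*).

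**Figure D2:**
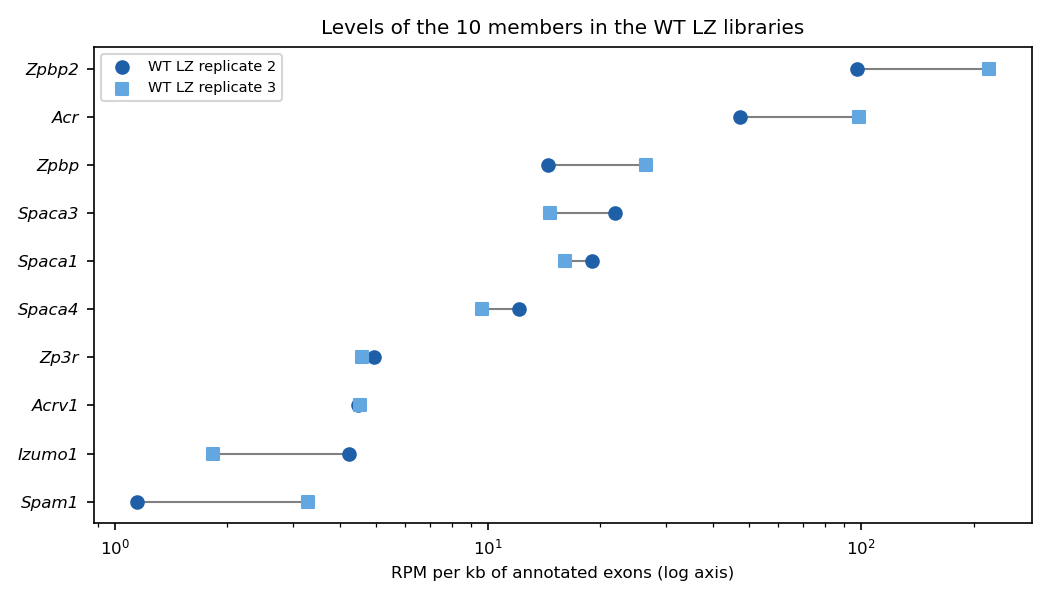
Level of each gene in WT LZ as RPM per kb of annotated exons, on a logarithmic axis; circles are replicate 2 and squares replicate 3, joined by a line. *Zpbp2* and *Acr* stand apart at the right, and the order of the 2 replicates differs between genes.

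Per kb of annotated exons, *Zpbp2* had the highest level in WT LZ, with a mean of 159 RPM per kb, followed by *Acr* at 73.0. *Zpbp* (20.5 RPM per kb), *Spaca3* (18.3) and *Spaca1* (17.5) came next, and the ranges of these 3 over the 2 libraries overlapped. *Spaca4* had 10.9, *Zp3r* 4.77, *Acrv1* 4.51, *Izumo1* 3.03 and *Spam1* 2.22 RPM per kb. *Acr* was the gene whose place moved most, since in WT PreL it ranked 7 of the 10 at 1.58 RPM per kb.

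The 2 WT LZ libraries did not differ in the same way for all members. In replicate 3 the RPM of *Spam1* was 2.89 times, of *Zpbp2* 2.27 times, of *Acr* 2.08 times and of *Zpbp* 1.83 times that in replicate 2. *Izumo1* was at 0.433 times, *Spaca3* at 0.671, *Spaca4* at 0.797 and *Spaca1* at 0.849, while *Zp3r* (0.928) and *Acrv1* (1.01) were nearly level. Markers of late spermatocytes summed to 4974 RPM in replicate 2 and 8598 RPM in replicate 3, and spermatid markers to 1147 and 668 RPM. The part of these cells in the members' differences was not tested.

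**Figure D3:**
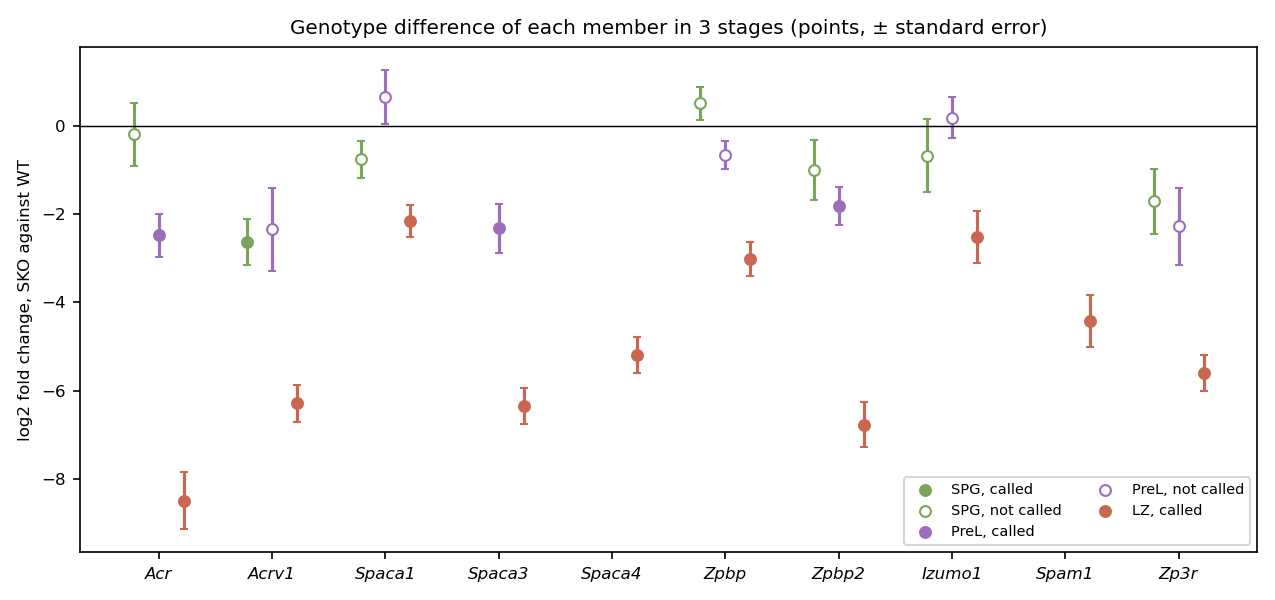
Log2 fold change of each gene, SKO against WT, with its standard error from limma, in SPG (green), PreL (purple) and LZ (red); filled points passed the thresholds and open points did not, and a gene without a point was too low to be tested in that stage. The LZ points lie between -8.48 and -2.16, below the SPG and PreL points of the same gene.

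In LZ all 10 genes were lower in SKO than in WT. Each of the 10 was called, against 25.8% of 13724 genes called lower, and no SKO library reached a WT library for any of the 10, where 39.8% of all tested genes had every SKO library below every WT library. The median log2 fold change of the 10 was -5.39, against -0.13 for all genes, and it was -3.58 with the 5 genes at 0 in SKO set to their bounds. Only 4 of the 10 (*Spaca1*, *Zpbp*, *Zpbp2* and *Izumo1*) had over 3 reads in any SKO LZ library. The other 6 reached the mean of 10 reads needed for a test only through WT LZ, so they could be called only lower.

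Of the acrosomal contents, *Acr* had 1027 and 2111 reads in WT LZ and 0, 0 and 2 reads in SKO LZ replicates 1, 2 and 3. Pooled over libraries its RPM was 1162 times higher in WT (95% exact interval 321 to 9596, counting error only), and the log2 fold change was -8.48 (standard error 0.65, adjusted p = 6.88e-05). *Acrv1*, the acrosomal vesicle protein SP-10, had 226 reads in each WT LZ library and 0 in each SKO LZ library. It was at least 22.6-fold lower in SKO by the WT mean, as are the bounds that follow unless said otherwise, taking 3 reads in the SKO library with the highest value per read as the floor (log2 fold change -6.28, adjusted p = 5.20e-05). *Zp3r*, the matrix protein sp56, had 145 and 133 reads in WT and 0 in each SKO library, and was at least 13.8-fold lower (log2 fold change -5.59, adjusted p = 6.11e-05). *Spam1*, the hyaluronidase PH-20, had 35 and 100 reads in WT and 0 in each SKO library, at least 7.24-fold lower by the WT mean and 2.98-fold by the lower WT library (log2 fold change -4.41, adjusted p = 7.39e-04). All 4 were thus at or under the floor in SKO LZ. The depth of 5812380 to 7609420 reads of those libraries places the floor at 0.394 to 0.516 RPM.

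Of the genes that shape the acrosome, *Zpbp2* had 2261 and 5073 reads in WT LZ and 10, 17 and 7 in SKO LZ. Its RPM was 267 ± 147 (SD, n = 2) in WT and 1.65 ± 0.614 (SD, n = 3) in SKO (log2 fold change -6.77, standard error 0.51, adjusted p = 6.44e-05). *Zpbp* had 850 and 1537 reads in WT and 39, 55 and 67 in SKO. Its RPM was 87.0 ± 36.0 in WT and 7.87 ± 1.58 in SKO (log2 fold change -3.02, standard error 0.39, adjusted p = 6.05e-04). The paralogues thus differed in what was left in SKO: both WT libraries had more *Zpbp2* than *Zpbp* reads, and the SKO libraries had fewer. *Spaca1* had 418 and 351 reads in WT and 37, 31 and 27 in SKO, with RPM of 28.0 ± 3.23 and 4.78 ± 1.38 (log2 fold change -2.16, standard error 0.36, adjusted p = 0.00210). The libraries were not stranded, so reads on the bases that *Zpbp* shares with *Spata48* cannot be told apart. *Spata48* itself had 48 and 92 reads in WT LZ and 0 to 3 in SKO LZ.

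Of the genes that act at the egg, *Spaca3* had 288 and 191 reads in WT LZ and 0 in each SKO LZ library, at least 23.3-fold lower (log2 fold change -6.33, adjusted p = 5.18e-05). *Spaca4* had 118 and 93 reads in WT and 0 in each SKO library, at least 10.4-fold lower (log2 fold change -5.19, adjusted p = 7.14e-05). *Izumo1*, the sperm protein that binds Juno on the egg, had 175 and 75 reads in WT and 9, 10 and 3 in SKO. Its RPM was 9.07 ± 5.07 in WT and 1.10 ± 0.588 in SKO (log2 fold change -2.52, standard error 0.58, adjusted p = 0.00898). *Rasip1*, which shares exonic bases with *Izumo1*, had 107 to 155 reads in WT LZ and 68 to 88 in SKO LZ, so reads assigned between them are uncertain. *Izumo1* was no longer called without WT LZ replicate 2 (adjusted p = 0.10) or replicate 3 (adjusted p = 0.0664), and *Spaca1* was not called without replicate 3 (adjusted p = 0.0532), where the count of called genes was 7 and *Spam1* was too low to be tested.

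In PreL, 3 of the 10 genes were called lower in SKO, of 8 that were tested, against 5.83% of 13132 genes, and 5 of the 10 had no overlap between the genotypes. Of these, *Acr*, *Spaca3* and *Zpbp2* were among the 8 tested and *Spaca4* and *Spam1* were not, against 20.0% of tested genes with every SKO library below every WT library. *Acr* had 22, 41 and 16 reads in WT PreL and 0 in each SKO PreL library, at least 9.09-fold lower by the WT mean and 5.74-fold by the lowest WT library (log2 fold change -2.48, standard error 0.50, adjusted p = 0.00996). *Spaca3* had 15, 49 and 15 reads in WT and 0, 1 and 0 in SKO replicates 1, 2 and 3 (log2 fold change -2.33, standard error 0.55, adjusted p = 0.0199). Pooled over libraries its RPM was 83.3 times higher in WT, with a counting interval of 14.5 to 3332. *Zpbp2* had 155, 195 and 63 reads in WT and 26, 50 and 32 in SKO (log2 fold change -1.82, standard error 0.43, adjusted p = 0.0198). For these 3 genes every WT library lay above every SKO library. *Acr* and *Spaca3* reached the mean of 10 reads needed for a test only through WT PreL, so they could be called only lower.

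The other PreL values were uneven between WT libraries. *Acrv1* had 48, 94 and 0 reads in WT and 1, 1 and 0 in SKO (log2 fold change -2.34, adjusted p = 0.115), and *Zp3r* had 46, 61 and 0 in WT and 0 in each SKO library (log2 fold change -2.28, adjusted p = 0.101). *Spaca4* had 4, 35 and 6 reads in WT and 0, 1 and 0 in SKO, and *Spam1* 21, 23 and 1 in WT and 0 in SKO, too few to be tested. *Spaca1* at 0.65 (adjusted p = 0.488), *Zpbp* at -0.66 (adjusted p = 0.174) and *Izumo1* at 0.18 (adjusted p = 0.819) were not called, and their ranges overlapped between the genotypes. *Acrv1* was called by edgeR (adjusted p = 0.0416) and DESeq2 (adjusted p = 0.00167). *Zpbp2* was not called on the calibrated values without rescaling, where *Zp3r* was (-1.16, adjusted p = 0.0615 for *Zpbp2* and adjusted p = 0.0422 for *Zp3r*), nor in 1 fit of all 17 libraries (adjusted p = 0.0545). The PreL calls also depended on single libraries. *Zpbp2* was lost without WT replicate 1 (adjusted p = 0.0621) and *Spaca3* without SKO replicate 2 (adjusted p = 0.0623). The count was 0 without WT replicate 2, where *Zpbp2* was at adjusted p = 0.0776 and *Acr* and *Spaca3* were too low to be tested, and 0 without SKO replicate 1, with adjusted p of 0.0559 for *Acr*, 0.0886 for *Spaca3* and 0.0780 for *Zpbp2*. It was 5 without WT replicate 4, which added *Acrv1* (adjusted p = 0.00385) and *Zp3r* (adjusted p = 0.00335) and was the library with the lowest summed level of the 10 genes in WT PreL (24.2 RPM). WT replicate 2 had the highest sum, 80.9 RPM, and the highest summed late spermatocyte markers of the WT PreL libraries, 1608 RPM.

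In SPG, 1 of the 10 genes was called lower in SKO, of 7 that were tested, against 2.06% of 12846 genes. It was *Acrv1*, with 46, 48 and 54 reads in WT SPG and 0 in each SKO SPG library, at least 13.2-fold lower (log2 fold change -2.64, standard error 0.52, adjusted p = 0.00614). *Acrv1* reached the mean of 10 reads needed for a test only through WT SPG, so it could be called only lower. *Spaca3*, too low to be tested, had 25, 22 and 7 reads in WT and 0 in each SKO library, *Spaca4* had 10, 0 and 8 in WT and 0 in SKO, and *Spam1* 14, 1 and 34 in WT and 0, 0 and 3 in SKO. *Zp3r* had 63, 53 and 0 reads in WT and 0, 0 and 4 in SKO (log2 fold change -1.71, adjusted p = 0.162). It was called without WT replicate 3, which has no read of it (log2 fold change -2.64, adjusted p = 0.0360), when the count became 2, and also by DESeq2 (adjusted p = 0.0447). *Zpbp* was tested at 0.51 (adjusted p = 0.420), *Acr* at -0.19 (0.904), *Izumo1* at -0.67 (0.663), *Spaca1* at -0.76 (0.271) and *Zpbp2* at -1.01 (0.381). In all, 3 of the 10 (*Acrv1* and *Spaca1* of the 7 tested, and *Spaca3*) had no overlap between the genotypes on the rescaled values, against 14.4% of tested genes with every SKO library below every WT library. By RPM *Spaca1* did overlap, its lowest WT library being at 6.99 and its highest SKO library at 7.05 RPM.

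Within SKO 6 of the 10 genes were too low for a comparison of stages. From PreL to LZ, 4 were high enough to be tested and 0 were called by limma, against 10.6% higher and 6.93% lower among 12477 genes, with 0 at an unadjusted p under 0.05 and 0 called by edgeR or DESeq2. The log2 differences were 0.01 for *Spaca1*, 0.03 for *Zpbp*, -0.49 for *Zpbp2* and -0.92 for *Izumo1*. From SPG to PreL in SKO, 0 of the same 4 were called by limma, edgeR or DESeq2, against 1.63% higher and 0.955% lower among 12882 genes, and 0 had an unadjusted p under 0.05. Their log2 differences ran from -0.55 (*Zpbp*) to 0.54 (*Izumo1*). On the calibrated values without rescaling *Spaca1* was called higher from SPG to PreL in SKO (1.23, adjusted p = 0.0386, against 0.30), where the median of all genes was 1.0.

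The genotype effect in LZ was set against that in PreL with an interaction term over all 17 libraries. The term shares the WT and SKO libraries of the comparisons given above. It was more negative in LZ for 7 of the 10 genes (adjusted p under 0.05, no fold threshold), against 23.1% of 13530 genes. *Acr* was at -4.98 (standard error 1.03, adjusted p = 9.39e-04) and *Zpbp2* at -4.77 (standard error 0.99, adjusted p = 9.43e-04). With edgeR *Acr* was at -1.83 (adjusted p = 0.897). *Zpbp* (-2.30, adjusted p = 0.00305), *Spaca1* (-2.76, adjusted p = 0.00812) and *Zpbp2* had over 3 reads in every SKO PreL and SKO LZ library. *Acr*, *Spaca3* (-2.82, adjusted p = 0.00487), *Spaca4* (-2.53, adjusted p = 0.0196) and *Acrv1* (-2.79, adjusted p = 0.0493) were at or under 3 reads in all of them. For these 4 the sign and size of the difference are set by the WT libraries and the added 10, and restate the WT rise. *Acrv1* passed by a small margin and did not pass in 15 of 19 alternatives, among them leaving out WT PreL replicate 4, any SKO PreL library, or any LZ library of either genotype (adjusted p of 0.0600 to 0.141). *Spaca4* did not pass without WT PreL replicate 1 (adjusted p = 0.0558) or WT LZ replicate 3 (adjusted p = 0.0624). edgeR and DESeq2 each called 3 genes, *Spaca1*, *Zpbp* and *Zpbp2*. *Izumo1* (-2.49, adjusted p = 0.119), *Spam1* (-1.69, adjusted p = 0.192) and *Zp3r* (-2.16, adjusted p = 0.199) did not pass.

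Between PreL and SPG the genotype effects of 0 of the 10 genes were called different by the same limma test, against 0.111% more negative and 0.251% more positive among 13530 genes. The test has little power. In simulated data it recovered 86 of 200 genes changed by 2 on the log2 scale, where SKO against WT recovered 191 in SPG and 195 in PreL. Genes of few reads were not among those changed, and every gene was given the same relative spread beyond counting error. The recoveries may therefore not hold for the 10 genes. An unadjusted p under 0.05 was reached by 2 of the 10 (*Acr* and *Zpbp*, named after their values were seen), and edgeR and DESeq2 called 0. On the calibrated values without rescaling *Spaca1* was called more positive (2.28, adjusted p = 0.0156, against 1.44), where the median of all genes was 0.94. The differences ran from -2.36 (*Acr*) to 1.44 (*Spaca1*).

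Most other genes of acrosome biogenesis and acrosome content were lower in SKO LZ as well. Their list, like the other gene and marker lists used here, was written from general knowledge with earlier results of these data known. Of 42 such genes, 41 were tested in LZ, of which 33 fell and 1 rose in SKO, where 25.8% of all genes fell and 13.4% rose. In SKO LZ 18 of the 42, and 12 of the 24 adhesion and fusion genes below, had at most 3 reads in every library. In SKO PreL these were 14 of the 42 and 12 of the 24, and in SKO SPG 13 of the 42 and 8 of the 24. Where tested, such genes could be called only lower in that stage. The median log2 fold change was -4.58. *Crisp2*, a secretory protein of the acrosome and tail, had 7210 and 13715 reads in WT LZ and 0 to 4 in SKO LZ (log2 fold change -10.34, adjusted p = 5.59e-05). *Spata16*, a Golgi protein of the forming acrosome, had 1678 and 3738 reads in WT and 0 to 5 in SKO (-8.66, adjusted p = 1.16e-04), and the testis protease gene *Prss39* 448 and 1506 in WT and 0 in SKO (-8.13, adjusted p = 7.72e-05). The gene called higher was *Sirt1*, a deacetylase gene of many tissues, with 1409 and 1695 reads in WT and 970 to 1476 reads in the shallower SKO libraries (1.08, adjusted p = 0.00474). In PreL 18 of 37 tested were called lower, against 5.83% of all genes, and 0 higher by limma, against 5.32% (median -1.98), led by *Crisp2* (-6.65, adjusted p = 3.66e-06), the actin-related *Actrt2* (-4.76, adjusted p = 1.26e-04) and the protease inhibitor *Spink2* (-4.71, adjusted p = 0.00102).

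In SPG 5 of 35 tested genes of that list were called lower and 1 higher, against 2.06% and 3.95% of all genes (median -0.72). The summed level of the list went the other way, with 1455 to 1686 RPM in WT SPG and 1747 to 1994 RPM in SKO SPG. The 3 with the largest fall were *Crisp2* (-3.90, adjusted p = 0.00614), *Spaca9*, listed as *1700026L06Rik* (-2.58, adjusted p = 0.00909), and *Spaca7* (-2.44, adjusted p = 0.0309). The gene called higher was *Dpep3*, a membrane dipeptidase of germ cells, with 2287 to 3764 reads in WT and 4972 to 7159 in SKO (1.20, adjusted p = 1.60e-04). Of 24 genes of gamete adhesion and fusion in the table, 19 of 21 tested were called lower in LZ (25.8% of all genes), 9 of 17 in PreL (5.83%) and 6 of 18 in SPG (2.06%), and 0 were called higher by limma in any stage. Genes with at most 3 reads in every SKO library of a stage could not be called higher there. The median log2 fold changes of the adhesion and fusion genes were -4.61, -1.54 and -1.30. Their summed level also went the other way in SPG, with 529 to 1004 RPM in WT and 1011 to 1148 RPM in SKO. *Adam3*, needed for zona binding, had 2678 and 5540 reads in WT LZ and 0 or 1 in SKO LZ (-9.99, adjusted p = 5.17e-05). Its partner *Adam2* had 3426 and 5667 reads in WT and 3 to 10 in SKO (-8.00, adjusted p = 5.17e-05), and *Adam1b* 408 and 1101 in WT and 0 in SKO (-7.84, adjusted p = 6.54e-05).

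In PreL the genes of adhesion and fusion with the largest fall were *Adam3* (-5.71, adjusted p = 7.24e-05), *Galntl5*, a glycosyltransferase-like gene of spermatids (-5.26, adjusted p = 2.15e-04), and *Llcfc1*, a sperm gene of egg fusion listed as *1700034O15Rik* (-5.19, adjusted p = 9.95e-05). In SPG they were *Llcfc1* (-3.34, adjusted p = 0.00127), *Galntl5* (-3.09, adjusted p = 0.00614) and *Adam2* (-2.53, adjusted p = 0.0257). In WT, 20 of 41 tested genes of the acrosome list and 9 of 21 of the adhesion and fusion list were called higher from PreL to LZ, and 0 lower by limma, against 18.8% and 7.80% of all genes.

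**Figure D4:**
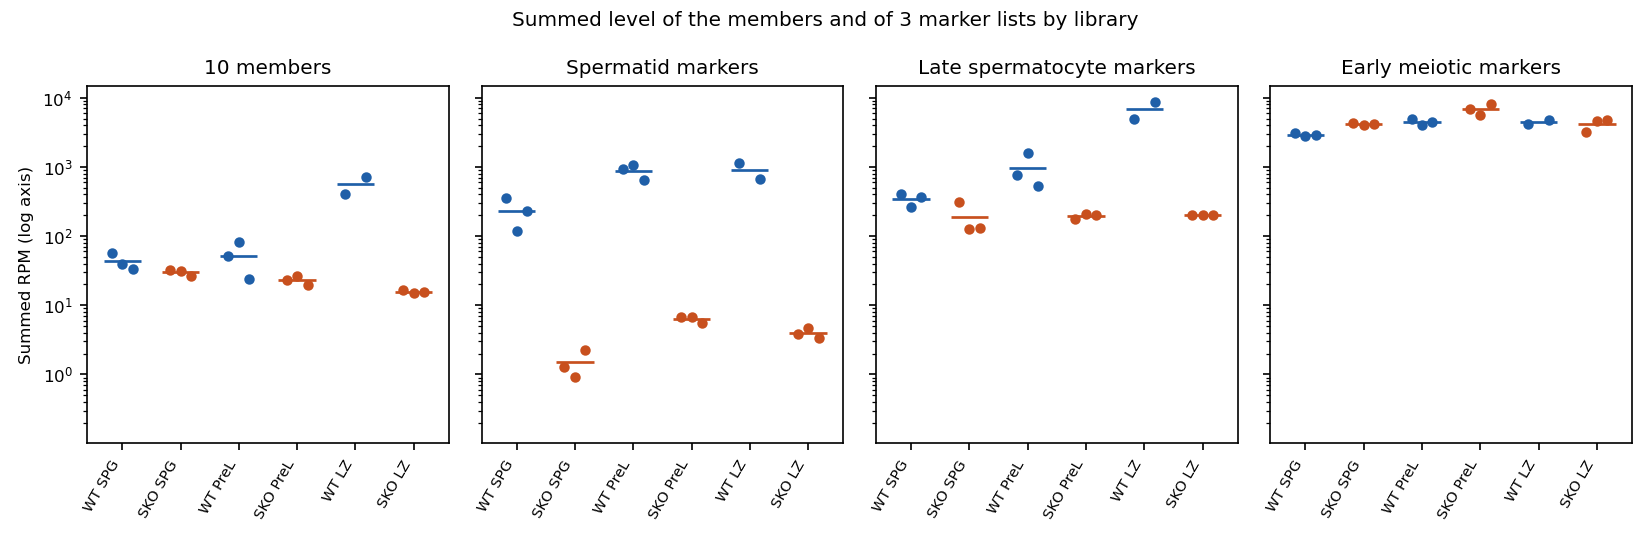
Summed RPM of the 10 genes and of 3 lists of 10 marker genes each, per library, on a logarithmic axis; blue is WT, orange SKO, and bars are group means. The spermatid markers stand at 119 RPM or above in every WT library and below 10 RPM in every SKO library, while the early meiotic markers of both genotypes lie between 2754 and 8042 RPM.

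Most markers of later germ cells were lower in SKO LZ, as the members were. From PreL to LZ in WT, 9 of 10 late spermatocyte markers were called higher (median log2 difference 2.71). Of the spermatid markers 1 of 10 was (median 0.03), against 18.8% of all genes. The 10 spermatid markers summed to 119 to 349 RPM in WT SPG, 642 to 1058 in WT PreL and 668 to 1147 in WT LZ, against 0.910 to 2.27, 5.51 to 6.77 and 3.32 to 4.73 RPM in the SKO groups, and 9 of 10 were called lower in SKO in SPG, 9 of 10 in PreL and 10 of 10 in LZ. Of all genes tested, 2.06% were called lower in SKO in SPG, 5.83% in PreL and 25.8% in LZ. In SKO LZ *Odf1* and *Hils1* had 0 reads, and in SKO SPG *Akap4*, *Smcp* and *Hils1*. At most 3 reads in every library were found for 5 of the 10 spermatid markers in SKO SPG, 2 in SKO PreL and 7 in SKO LZ. These could be called only lower. The 10 late spermatocyte markers summed to 263 to 412 RPM in WT SPG, 530 to 1608 in WT PreL and 4974 to 8598 in WT LZ, and to 127 to 307, 178 to 207 and 199 to 204 RPM in SKO, with 4, 7 and 9 of 10 called lower in SPG, PreL and LZ and none at 0 in all libraries of any group. These sorts were labelled as stages before the pachytene stage. The paper counted sorted cells by immunofluorescence, and most in PreL and LZ were of the named stage, with few or no pachytene cells. It lists no such count for SPG and does not name the genotype counted. The part of other germ cells in the members' differences was not tested.

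The 10 early meiotic markers summed to 4190 and 4804 RPM in WT LZ and 3190 to 4831 RPM in SKO LZ, with 1 of 10 called lower, against 25.8% of all genes. Their sum does not separate PreL from LZ, as WT PreL (4002 to 4874 RPM) overlapped WT LZ. The 10 spermatogonial markers summed to 358 and 865 RPM in WT LZ and 736 to 782 RPM in SKO LZ, with 3 of 10 called higher. In SPG the early meiotic markers were at 2754 to 3047 RPM in WT and 3971 to 4256 RPM in SKO, and in PreL at 4002 to 4874 RPM in WT and 5708 to 8042 RPM in SKO, with 1 of the 10 called higher in PreL. The spermatogonial markers were at 898 to 964 RPM in WT SPG and 1164 to 1233 RPM in SKO SPG (1 of 10 called higher), and at 664 to 703 RPM in WT PreL and 740 to 887 RPM in SKO PreL (2 of 10). Calls of higher levels in SKO, for these markers and for the somatic ones that follow, stand against 3.95% of all genes in SPG, 5.32% in PreL and 13.4% in LZ. Leydig cell markers summed to 20.0 and 56.9 RPM in WT LZ and 80.7 to 231 RPM in SKO LZ (5 of 7 tested called higher), and to 5.61 to 15.5 RPM in WT SPG and 61.2 to 222 RPM in SKO SPG (5 of 6). In PreL they were at 6.25 to 17.4 RPM in WT and 40.2 to 452 RPM in SKO (6 of 6). Peritubular myoid markers were at 1.21 to 43.8 RPM in WT SPG and 271 to 484 RPM in SKO SPG (3 of 4), and macrophage markers at 4.32 to 8.28 and 56.2 to 88.7 RPM (4 of 6). Sertoli cell markers were at 122 and 547 RPM in WT LZ and 328 to 400 RPM in SKO LZ (1 of 6), and at 35.6 to 40.9 RPM in WT PreL and 39.2 to 428 RPM in SKO PreL (4 of 6). In SPG they were at 9.81 to 12.3 RPM in WT and 11.5 to 21.1 RPM in SKO (0 of 5). *Hsd17b3* and *Emr1* in WT SPG and *Amh* in WT PreL and SKO LZ were at 0 in all libraries of those groups, and the other markers of the 4 somatic lists in the table had a read in every group. The part of these cells in the members' values was not tested.

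The genes outside the 10 whose pattern over the 17 libraries was most like the mean pattern of the 10 were *1700065I17Rik*, *Cypt2-ps*, *BC061237*, *Odf3l1* and *Acyp1*. Likeness was the root-mean-square difference of the mean-centred log2 values, which was 0.34 for *1700065I17Rik*, 0.37 for *Cypt2-ps*, 0.38 for *BC061237*, 0.42 for *Odf3l1* and 0.43 for *Acyp1*, where the median over 13520 genes was 1.53. *1700065I17Rik* had 78 and 161 reads in WT LZ and 0 in SKO LZ, 3 to 18 in WT PreL and 0 to 2 in SKO PreL. *Acyp1*, an acylphosphatase gene, had 5496 and 9268 reads in WT LZ, 196 to 280 in SKO LZ, 464 to 1635 in WT PreL, 277 to 404 in SKO PreL, 717 to 801 in WT SPG and 323 to 580 in SKO SPG. *Cypt2-ps* is named as a pseudogene of a gene family, so reads may be shared with its relatives.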

How the data were processed

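Sorted germ cells were sequenced by Smart-seq2 (oligo(dT) priming, not stranded). The submitters' processing notes name TopHat2 2.1.1, Cufflinks 2.2.1, HTSeq 0.11.2 and DESeq2 and the builds mm10 and mm9, without saying which build served this table. The deposited signal per gene is the reads the authors counted, multiplied by 1 ERCC calibration factor per library, and 100% of values came out as whole reads (within 0.01) when divided by it. Each comparison was rescaled by median-of-ratios size factors, which removes a change shared by all genes, and log2(value + 10) was tested with limma 3.58.1 (R 4.3.3) for genes averaging 10 reads or more. edgeR 4.0.16 and DESeq2 1.42.0 on recovered reads were alternatives, along with other scalings, pseudocounts, filters, a replicate block and leaving out each library. Gene positions came from GENCODE M21 and promoters from RefSeq.

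Groups and replicate numbers came from the labels. All 10 members were named, with the 3 genes of largest change among those called in each of the other lists, and the 5 genes nearest to the members' mean profile. The members and lists were chosen with earlier results of these data known. *Dcst2* and *Fimp* matched no gene of the table. The script was tested on simulated data, where the interaction recovered 86 of 200 changed genes for PreL against SPG and 92 for LZ against PreL.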

Additional observations from a re-analysis of the deposited data

Results flagged for a closer look

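The genotype effect was called different between LZ and PreL, by an interaction term in limma over all 17 libraries, for 7 of the 10 genes. The differences on the log2 scale were -4.98 for *Acr*, -4.77 for *Zpbp2*, -2.82 for *Spaca3*, -2.79 for *Acrv1*, -2.76 for *Spaca1*, -2.53 for *Spaca4* and -2.30 for *Zpbp*, each more negative in LZ. For *Acr*, *Acrv1*, *Spaca3* and *Spaca4* at most 2 reads were found in any SKO PreL or SKO LZ library. The sign and size of their difference are thus set by the WT libraries and the added 10, and restate the WT rise from PreL to LZ. With edgeR and with DESeq2 only *Spaca1*, *Zpbp* and *Zpbp2* were called, and *Acrv1* did not pass in 15 of 19 alternatives.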

How the results depend on the processing

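No called gene changed direction under the alternatives run, while the log2 difference of an uncalled gene changed sign in 51 cases. In SPG these were *Acr* (0.08 and 0.17 without SKO replicate 3 or 4) and *Izumo1* (0.22 without SKO replicate 3), and in PreL *Spaca1* (-0.09 with the block, -0.14 without WT replicate 4), *Izumo1* (-0.12 to -0.10 with the block and without WT replicate 4 or SKO replicate 2) and *Zpbp* (0.03 without rescaling). The other cases lay in the comparisons of stages and of effects between PreL and SPG. Across the settings that kept all libraries, 81 counts of called members stayed within 1.5 times the value given and 13 did not. In SPG the count of genes lower in SKO was 2 with no filter on low values, 0 with a mean of at least 50 reads (3 genes tested), 2 by DESeq2 and 2 in 1 fit of all 17 libraries. In PreL it was 1 with 50 added in place of 10, 1 with the filter at 50 reads (3 tested) and 5 with the replicate number as a block. The count higher from PreL to LZ in WT was 10, and that from SPG to PreL in SKO 1 (*Spaca1*, log2 difference 1.23, adjusted p = 0.0386 from limma), on the calibrated values without rescaling, a scaling that moved the median of all genes from 0.13 to 1.86 and from 0.03 to 1.0. The count with a more negative effect in LZ than in PreL was 3 with 1 added, 4 with the filter at 50 reads (4 tested), 3 by edgeR and 3 by DESeq2. The cause of these changes was not tested, apart from the filters, which leave fewer genes to test.

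Leaving out each library in turn gave counts of 1 to 2 in SPG, 0 to 5 in PreL and 7 to 10 in LZ lower in SKO, 2 to 7 higher from PreL to LZ in WT, and 5 to 7 for the effect in LZ against PreL. The replicate numbers were not taken to pair the samples. Same-numbered pairs had correlations of -0.19 to 0.13 and differently numbered pairs of -0.17 to 0.19. For SKO against WT in LZ they were 0.086 and 0.099 in same-numbered pairs and at most 0.0098 in the others. These are deviations from means of 2 or 3 libraries, so they cannot exclude a pairing. With the replicate block the LZ count was 10 and that of the effect in LZ against PreL 6, and no block could be fitted from PreL to LZ in WT, which shares 1 number. With 5812380 to 7609420 reads, the floor of 3 reads in SKO LZ was 0.394 to 0.516 RPM.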
